A study of Mus musculus with 4 samples.

Results

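Primary cilium genes were examined in RNA sequencing libraries of embryonic mouse eyes (strain C57BL/6). The genes were chosen by symbol, with earlier results of these data known. They are intraflagellar transport (IFT) subunits, Bardet-Biedl syndrome genes, ciliary motors, transition zone genes, and a few genes of the photoreceptor cilium. The rule found 51 of the 18702 genes listed in each library, and all 51 symbols were those of RefSeq. The series held 4 libraries, 2 from wild-type embryos (Anp32b+/+) and 2 from embryos without functional Anp32b (Anp32b-/-), a gene for a nuclear protein that binds histones. The comparison asks what the lack of ANP32B does to eye development and to PAX6. Neither the embryonic stage, nor the deleted part of the gene, nor the number of embryos behind a library was given in the sources used here, and all libraries shared strain and tissue. Whether replicate libraries stem from different embryos is also not said, and p-values therefore cover the spread between these 4 samples alone, some or all of which may be technical.

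A primary cilium is a microtubule-based projection that most cells carry, built on a basal body and used to receive signals such as Hedgehog. IFT trains carry cargo along it, with kinesin-2 moving them towards the tip and cytoplasmic dynein-2 bringing them back. IFT-B acts mainly in outward and IFT-A mainly in return transport. The BBSome is a coat that moves membrane proteins through the cilium, and the transition zone at its base decides what enters. In photoreceptors the cilium is enlarged into the light-sensing outer segment, which hangs on a narrow connecting cilium, and faults in many of these genes cause retinal degeneration. Of the members, 48 belong to the general machinery, and 3, Rp1, Rpgrip1 and Tulp1, are known mainly from photoreceptors.

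Levels are given in FPKM, fragments scaled by transcript length and library size, which allows comparison between genes. The steps between low FPKM values placed the depth between 17840000 and 18040000 fragments a library. At that depth the counting error of a member had a median of 3.81% and ran from 1.61% for Rpgrip1 to 18.6% for Kif17. Anp32b had 163.18 and 179.12 FPKM in wild-type and 94.53 and 92.67 FPKM in knockout libraries, so its transcript was lower but present in the libraries labelled as knockout. Pax6 stood at 160.94 and 158.43 FPKM against 107.76 and 110.97 FPKM. The tissue label fits markers of the eye, since the lens crystallin gene Cryaa was the highest at 13106.29 and 13541.22 FPKM in the wild type, against 1350.48 and 1365.58 FPKM in the knockout. All 11 lens markers fell (median log2 fold change −3.49), whereas all 10 skeletal muscle markers (median 1.06) and all 10 mesenchyme markers (median 1.13) rose. All 10 retinal ganglion cell markers fell (median −0.56). Of 12 retinal progenitor markers 9 fell and 1 rose (median −0.44), and of 8 neuron markers 5 fell and none rose (median −0.28). Over all tested genes 21.1% were lower and 33.5% higher. The summed level of the lens markers went from 38835.6 to 39678.3 FPKM in the wild type to 3787.1 to 3789.4 FPKM in the knockout, while muscle markers went from 1321.9 to 1391.9 FPKM to 2768.9 to 2803.0 FPKM. The part of this makeup in the results on cilium genes was not tested, and in bulk tissue fewer cells of a type and less RNA per cell cannot be told apart.

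A minority of the members have a sequence feature that the rule did not use. The X-box is the site bound by RFX factors, which are known to drive cilium genes, and a match to it was present on either strand in the 250 bases before the start of 5 of 44 member genes with a RefSeq promoter (11.4%), against 412 of 14755 listed genes (2.79%). Those stretches are shown because general members with the site went different ways. They are in the direction of the gene, from RefSeq promoters of GRCm38.p6, with the match in capitals.
Arl13b: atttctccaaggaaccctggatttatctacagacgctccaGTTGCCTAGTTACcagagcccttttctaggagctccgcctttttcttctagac
Ift57: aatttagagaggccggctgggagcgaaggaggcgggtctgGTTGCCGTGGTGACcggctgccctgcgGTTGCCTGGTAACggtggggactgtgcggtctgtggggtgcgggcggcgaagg
Kif17: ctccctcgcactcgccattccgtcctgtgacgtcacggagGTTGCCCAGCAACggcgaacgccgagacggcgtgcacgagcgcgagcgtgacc
Tctn2: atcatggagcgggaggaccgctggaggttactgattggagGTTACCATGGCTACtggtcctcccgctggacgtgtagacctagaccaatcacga
Tctn3: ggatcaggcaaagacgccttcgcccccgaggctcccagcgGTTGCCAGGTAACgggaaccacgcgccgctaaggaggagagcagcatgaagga
These lie at chr16:62847169-62847261 on the minus strand for Arl13b, chr16:49699167-49699286 on the plus strand for Ift57, which holds 2 separate matches, chr4:138262138-138262230 on the plus strand for Kif17, chr5:124598647-124598740 on the plus strand for Tctn2 and chr19:40612319-40612411 on the minus strand for Tctn3. Of the 5 genes, Tctn2 and Tctn3 were lower in the knockout and Arl13b was higher, while Ift57 was not past the threshold and Kif17 was too low to test. The site's first part, GTTGCC, was searched separately on both strands, and it overlaps the X-box match in 4 of the 5. It was present before 11 of the 44 member genes (25%) and 1814 of the 14755 listed genes (12.3%). The starts are those of RefSeq. The Kif17 stretch lies inside the longer GENCODE gene, which starts at 138250435, and the Ift57 stretch runs past the GENCODE start at 49699233. A match describes the letters and does not show that a factor binds there.

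Member levels were moderate and spread over almost 2 orders of magnitude. The median wild-type mean was 10.86 FPKM, near the 11.72 FPKM of all tested genes. The highest means were those of the kinesin-2 subunit Kif3a (37.1 ± 0.11 FPKM, SD with n = 2 here and below) and of Ift43, Kifap3, Rpgrip1 and Ift22, which lay between 29.2 and 30.5 FPKM. The lowest were those of Kif17 (0.44 ± 0.05 FPKM) and the chaperonin-like gene Bbs10 (2.51 ± 0.1 FPKM). In this order Ift43 and Kifap3 did not differ beyond their spread, nor did Rpgrip1 and Ift22, whereas Kif3a lay above Ift43 (30.5 ± 0.43 FPKM) and Bbs10 above Kif17 by more than theirs.

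**Figure D1:**
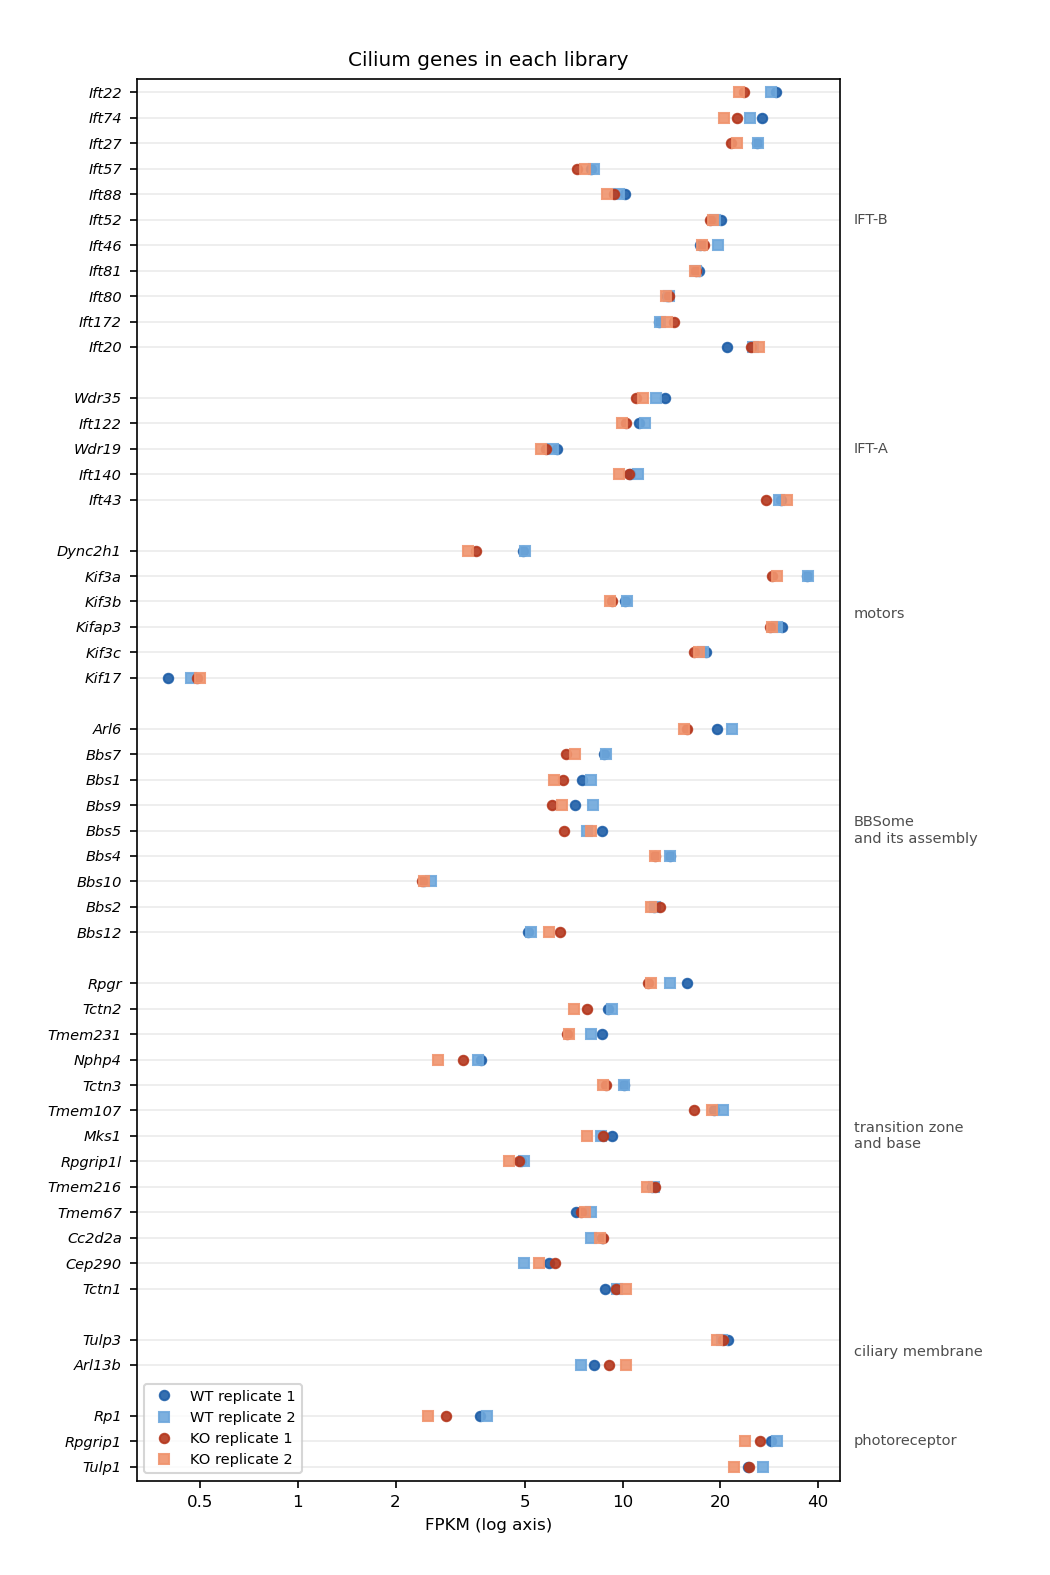
FPKM of 49 of the cilium genes in each of the 4 libraries, on a log axis, grouped by role; circles are replicate 1 and squares replicate 2. Most genes lie between 5 and 40 FPKM, and the knockout points sit to the left of the wild-type points for genes such as Kif3a, Dync2h1 and Arl6 and to the right for Arl13b.

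More members fell than rose in the knockout, and over 50% did not pass the test. Of the 50 members with a mean of at least 1 FPKM, 20 fell and 3 rose at an adjusted p under 0.05 (limma on log2(FPKM + 1), Benjamini-Hochberg over all 13887 genes tested). Over all tested genes 54.6% were called, 21.1% lower and 33.5% higher, against 46.0%, 40% and 6.0% of the members. The median log2 fold change was −0.10 for the members and 0.04 for all tested genes, and 42 of the 50 members lay below the median of all genes. The changes were small, and none exceeded 0.43 on the log2(FPKM + 1) scale in either direction. Both knockout values lay below both wild-type values in 31 members and above them in 4, and overlapped in 15. The same separation was seen in 77.9% of all tested genes, lower in 32.4% and higher in 45.6%.

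Because lens crystallins filled about 15% of the wild-type FPKM sum and 1.43% of each knockout sum, the scaling of the libraries shifts all other genes. With the deposited TPM values the median of all tested genes moved by 0.12 to 0.16, and 8 members were lower and 6 higher, against 12.0% and 49.9% of all genes (61.9% called). When each library was instead scaled to its sum outside 31 crystallin and red blood cell genes, called lens-free scaling below, 30 members were lower and 2 higher, against 31.2% and 25.4% of all genes (56.6% called), whose median was −0.04. With median-of-ratios scaling 28 members were lower and 3 higher, against 27.3% and 27.9% of all genes (55.2% called). The members' median was 0.00 with TPM, −0.15 with median-of-ratios scaling and −0.18 with lens-free scaling, so it depended on the scaling. With TPM and with lens-free scaling too, 42 of the 50 members lay below the median of all genes. In all, 8 members were called the same way in each of the 14 fits (Dync2h1 in the 13 it entered), 7 lower and 1 higher. Ift22, Ift27, Kif3a, Dync2h1, Arl6 and Bbs7 were among the lower ones. The other 15 called members lost the call in at least 1 fit without a library, and 12 of them also with TPM. Fewer members were called, lower and higher, in each fit without 1 library, and so were fewer of all tested genes. The share of members called lower also came nearer to that of all tested genes in each. The members' median log2 fold change was −0.12 without wild-type replicate 1, wild-type replicate 2 or knockout replicate 2. It was −0.13 without knockout replicate 1, and that of all tested genes was 0.04 in each of these fits.

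**Figure D2:**
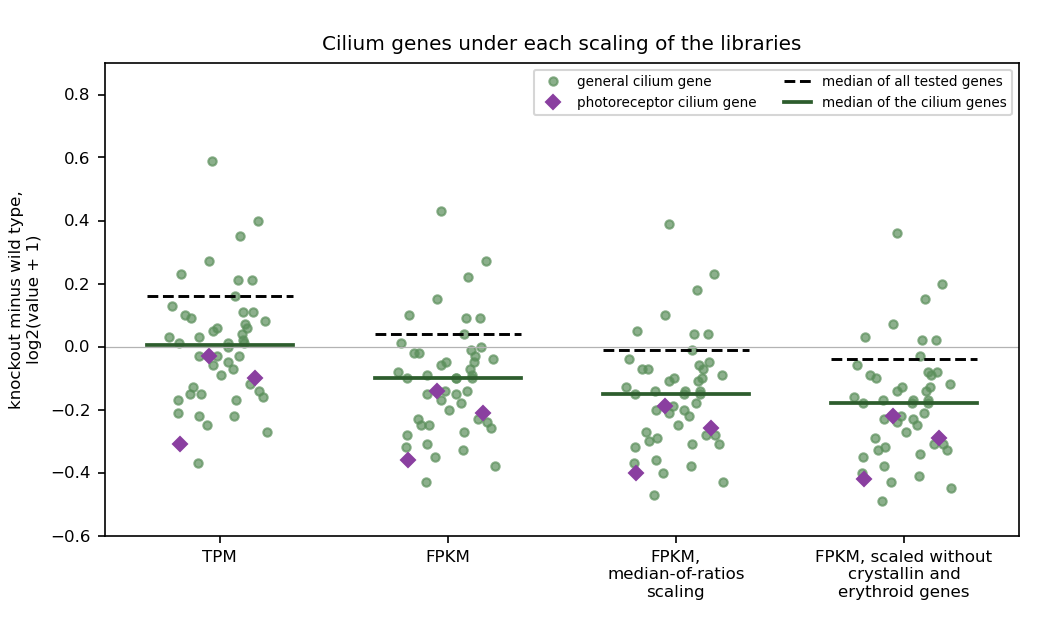
Log2 fold change (knockout minus wild type, log2 of the value plus 1) of the 50 tested cilium genes under 4 scalings; circles are general and diamonds photoreceptor cilium genes, with the median of the members as a solid line and that of all tested genes as a dashed line. The solid line lies below the dashed line in each column, at 0.00 against 0.16 with TPM and −0.10 against 0.04 with FPKM.

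Of the 11 IFT-B subunits 3 fell, none rose, and the class median was −0.06, or 0.05 with TPM. With FPKM the lower share of 27.3% was near the 21.1% of all tested genes. With median-of-ratios and lens-free scaling 6 of the 11 were lower (54.5% in each), against 27.3% and 31.2% of all tested genes. Ift22, a small GTPase-like subunit, had 29.69 and 28.69 FPKM in wild-type and 23.62 and 22.83 FPKM in knockout libraries (log2 fold change −0.32, SE 0.04, limma adjusted p = 0.000462). Ift27, another GTPase subunit, which is known to link IFT to the BBSome, stood at 25.94 and 26.06 FPKM against 21.50 and 22.56 FPKM (−0.23, adjusted p = 0.00226). Both groups were apart in these genes, and both calls held in every fit. Ift74, a subunit that binds tubulin together with IFT81, stood at 26.79 and 24.67 FPKM against 22.49 and 20.54 FPKM (−0.25, adjusted p = 0.00931), a call lost with TPM (0.0962), without wild-type replicate 1 (0.0735) and without knockout replicate 2 (0.085). Its partner Ift81 was at 17.17 and 16.85 FPKM against 16.83 and 16.75 FPKM (−0.02, 95% interval −0.11 to 0.07). Within a library the ratio of Ift22 to Ift81, which no scaling between libraries alters, was 1.73 and 1.70 in the wild type and 1.4 and 1.36 in the knockout. The groups did not overlap in this ratio, which was chosen after values were seen. Ift80 (−0.01) had the highest p of the class. Ift172 (0.10) and Ift20 (0.15), the subunit also found at the Golgi, were not past the threshold with FPKM but were called higher with TPM (0.23 and 0.27). The remaining subunits, Ift57, Ift88, Ift52 and Ift46, were between −0.10 and −0.05 and not past the threshold with FPKM. Of these, Ift57, Ift88 and Ift52 were called lower with median-of-ratios scaling (limma adjusted p = 0.0482, 0.0429 and 0.0457). They were also called lower with lens-free scaling (0.0272, 0.0298 and 0.0277).

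The 5 IFT-A subunits had a median of −0.10, which was 0.01 with TPM, and 2 of them fell (40%, against 21.1% of all tested genes). Wdr35 was at 13.54 and 12.68 FPKM against 11.02 and 11.56 FPKM (−0.20, SE 0.05, limma adjusted p = 0.0149), and Ift122 at 11.20 and 11.74 FPKM against 10.27 and 9.95 FPKM (−0.17, adjusted p = 0.024). Groups did not overlap in either gene. The Wdr35 call was lost with TPM (0.201) and without wild-type replicate 1 (0.0868), knockout replicate 1 (0.104) or knockout replicate 2 (0.0501). That of Ift122 was lost with TPM (0.366) and without wild-type replicate 2 (0.114), knockout replicate 1 (0.0715) or knockout replicate 2 (0.124). Wdr19 (−0.10), Ift140 (−0.09) and Ift43 (−0.04) were not past the threshold with FPKM. With lens-free scaling Wdr19 (limma adjusted p = 0.0483) and Ift140 (0.0376) were called lower. That made 4 of the 5 lower with this scaling (80%, against 31.2% of all tested genes). With median-of-ratios scaling 2 were lower (40%, against 27.3%).

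Motor genes held 2 of the larger falls. Dync2h1, the heavy chain of the dynein-2 motor for return transport (GRCm38 chromosome 9, positions 6928503 to 7184446, minus strand), was at 4.95 and 4.99 FPKM in the wild type and 3.54 and 3.34 FPKM in the knockout, 69.2% of the wild-type mean (−0.43, SE 0.06, limma adjusted p = 0.00142). Its light intermediate chain Dync2li1, no member of the rule, was at 14.92 and 16.21 FPKM against 14.48 and 15.30 FPKM (−0.06, adjusted p = 0.38). The ratio of the heavy to the light intermediate chain was 0.332 and 0.308 in the wild type and 0.244 and 0.218 in the knockout. Kif3a, a motor subunit of kinesin-2 (chromosome 11, positions 53567379 to 53601967, plus strand), was at 37.06 and 37.22 FPKM against 28.79 and 29.90 FPKM (−0.33, SE 0.03, adjusted p = 0.000254).

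KIF3A pairs with KIF3B in the ciliary motor, and with KIF3C in a motor known from neurons. Kif3b fell by less, from 10.15 and 10.29 FPKM to 9.28 and 9.12 FPKM (−0.14, limma adjusted p = 0.0412). Its call was lost with TPM (0.662), with no filter on low values (0.0535), with the replicate number as a block (0.0538), and without wild-type replicate 1 (0.0924), wild-type replicate 2 (0.127), knockout replicate 1 (0.105) or knockout replicate 2 (0.148). Kif3c (−0.08) and Kifap3 (−0.09), the cargo-binding subunit, were not past the threshold with FPKM. Both were called lower with median-of-ratios scaling (limma adjusted p = 0.0281 and 0.0142) and with lens-free scaling (0.0163 and 0.00903). All 5 tested motor genes were lower with these scalings, against 27.3% and 31.2% of all tested genes. With TPM 2 of the 5 were lower, against 12.0% of all tested genes. In Kif3c, 2 antisense genes overlap 35.3% and 7.94% of the exon bases. The ratio of Kif3a to Kif3b was 3.65 and 3.62 in the wild type and 3.10 and 3.28 in the knockout, and that of Kif3a to Kif3c 2.05 and 2.11 against 1.74 and 1.74. With 2 libraries against 2 an exact two-sided permutation test of such a ratio cannot go below p = 0.333. Kif17, a homodimeric kinesin-2 known from olfactory cilia and photoreceptors, was at 0.40 and 0.47 FPKM against 0.49 and 0.50 FPKM, under the level tested.

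**Figure D3:**
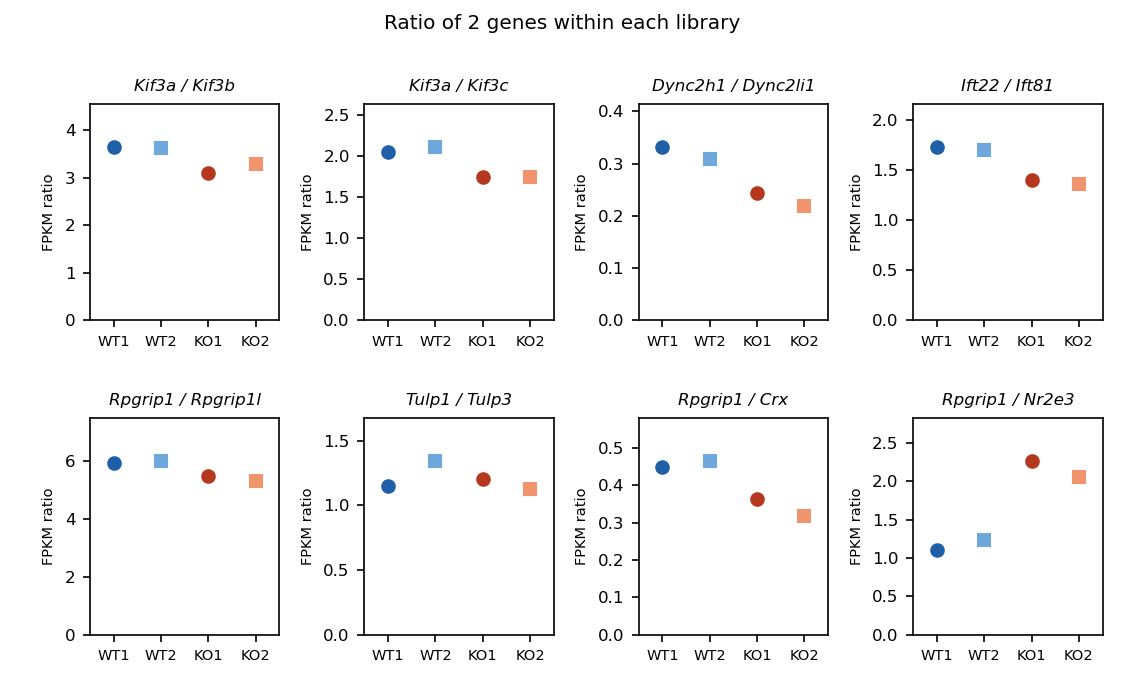
FPKM ratio of pairs of genes within each of the 4 libraries, each panel starting at 0. The knockout libraries lie below both wild-type libraries for Kif3a over Kif3b, Kif3a over Kif3c, Dync2h1 over Dync2li1, Ift22 over Ift81, Rpgrip1 over Rpgrip1l and Rpgrip1 over Crx, above them for Rpgrip1 over Nr2e3, and overlap them for Tulp1 over Tulp3.

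BBSome genes fell in 5 of 9 cases (21.1% of all tested genes were lower) and rose in 1, with a median of −0.15. With TPM 2 were lower, with a median of −0.05. Fewer were called lower in each fit without 1 library, where the class median ran from −0.21 to −0.14. Arl6, the small GTPase that recruits the BBSome to membranes (chromosome 16, positions 59612949 to 59639391, minus strand), was at 19.55 and 21.67 FPKM in the wild type and 15.83 and 15.43 FPKM in the knockout (−0.38, SE 0.05, limma adjusted p = 0.0011). The BBSome subunit gene Bbs7 was at 8.77 and 8.86 FPKM against 6.69 and 7.14 FPKM (−0.31, adjusted p = 0.00274). In both genes the groups were well apart, and both calls held in every fit.

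Among further BBSome subunits, Bbs1 was at 7.48 and 7.98 FPKM against 6.55 and 6.16 FPKM (−0.25, limma adjusted p = 0.0115), Bbs9 at 7.12 and 8.10 FPKM against 6.08 and 6.52 FPKM (−0.24, 0.0283), and Bbs4 at 14.01 and 13.95 FPKM against 12.58 and 12.62 FPKM (−0.14, 0.0249). Their calls were weaker than those of Arl6 and Bbs7. With TPM the adjusted p was 0.0816 for Bbs1, 0.141 for Bbs9 and 0.619 for Bbs4. The Bbs1 call was also lost without wild-type replicate 2 (0.0717) and knockout replicate 2 (0.0815), and that of Bbs9 with no filter (0.0782) and without wild-type replicate 2 (0.149), knockout replicate 1 (0.167) or knockout replicate 2 (0.0772). Without wild-type replicate 1, wild-type replicate 2, knockout replicate 1 or knockout replicate 2 the adjusted p of Bbs4 was 0.0816, 0.0751, 0.0981 and 0.0916. Bbs2 (12.47 and 12.55 FPKM against 13.03 and 12.23 FPKM) overlapped between groups, as did Bbs5 (−0.15) and Bbs10.

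Bbs12, which like Bbs10 and Mkks encodes a chaperonin-like protein for assembly of the BBSome, rose from 5.10 and 5.21 FPKM to 6.41 and 5.93 FPKM (0.22, SE 0.06, limma adjusted p = 0.0213). Its call was lost with lens-free scaling (0.0831) and without wild-type replicate 1 (0.0871), wild-type replicate 2 (0.0671) or knockout replicate 1 (0.119). Mkks, no member of the rule, was also higher, at 8.59 and 8.14 FPKM against 10.02 and 9.51 FPKM (0.20, adjusted p = 0.0173), and was named after its value was seen. That call was lost with the same scaling (0.0979) and without wild-type replicate 2 (0.0897), knockout replicate 1 (0.11) or knockout replicate 2 (0.0501).

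Of 15 transition zone and base genes 5 fell (33.3%, against 21.1% of all tested genes) and 1 rose (6.67%, against 33.5%). The median was −0.10, or 0.01 with TPM. The tectonic genes Tctn2 (9.02 and 9.28 FPKM against 7.79 and 7.08 FPKM, −0.27, adjusted p = 0.00788) and Tctn3 (10.09 and 10.07 FPKM against 8.89 and 8.73 FPKM, −0.18, 0.0168) fell, while Tctn1 was at 8.83 and 9.61 FPKM against 9.51 and 10.26 FPKM (0.09, 0.245), was called higher with TPM (0.21, 0.0199) and has 19.0% of its exon bases overlapped by Hvcn1 on the other strand. Tmem231, a membrane protein of the same complex, was at 8.66 and 8.01 FPKM against 6.72 and 6.86 FPKM (−0.26, adjusted p = 0.00779). Rpgr, a GTPase regulator at the cilium base whose loss causes retinal degeneration, was at 15.79 and 14.02 FPKM against 11.98 and 12.26 FPKM (−0.28, adjusted p = 0.00732).

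These 4 calls did not hold in every fit. With TPM the limma adjusted p was 0.0548 for Tctn2, 0.285 for Tctn3, 0.060 for Tmem231 and 0.055 for Rpgr. It was 0.0565 and 0.0573 for Tctn2 without wild-type replicate 2 and knockout replicate 2, 0.0599 for Tmem231 without knockout replicate 1, and 0.0715 and 0.055 for Rpgr without knockout replicate 1 and knockout replicate 2. For Tctn3 it was 0.0623, 0.0618, 0.0618 and 0.0844 without wild-type replicate 1, wild-type replicate 2, knockout replicate 1 and knockout replicate 2. Cep290, a large scaffold of the transition zone mutated in childhood blindness, was at 5.94 and 4.98 FPKM against 6.18 and 5.54 FPKM and overlapped between groups (0.09, 95% interval −0.12 to 0.30). Tmem67 (0.00, −0.15 to 0.14) and Cc2d2a (0.04, −0.09 to 0.17) had intervals around 0 as well. Mks1, Tmem216, Rpgrip1l, Tmem107 and Nphp4 were between −0.23 and −0.02 and not past the threshold with FPKM. Of these, Tmem107 and Nphp4 were called lower with median-of-ratios scaling (limma adjusted p = 0.0355 and 0.0346) and with lens-free scaling (0.0139 and 0.0245).

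The inversin compartment is a stretch of the cilium just beyond the transition zone. From the list of other cilium genes Invs, Nek8 and Anks6 belong to it, named together after their values were seen. All 3 were higher, as were 33.5% of all tested genes. Picked by value, they do not describe the compartment as a whole. Invs, the inversin gene, was at 4.05 and 3.83 FPKM against 5.49 and 5.33 FPKM (0.38, limma adjusted p = 0.00227), in every fit. Nek8 was at 4.87 and 4.78 FPKM against 5.70 and 6.01 FPKM (0.23, 0.0144), and Anks6 at 2.93 and 3.30 FPKM against 3.64 and 4.0 FPKM (0.23, 0.0475). With lens-free scaling Nek8 (0.0544) and Anks6 (0.114) were not past the threshold, and with length and GC trends removed they were at 0.0663 and 0.259. Nek8 was also not past it without wild-type replicate 2 (0.0634) or knockout replicate 2 (0.0869), nor Anks6 without wild-type replicate 1 (0.195), wild-type replicate 2 (0.0554), knockout replicate 1 (0.0816) or knockout replicate 2 (0.219), with no filter (0.094) or with median-of-ratios scaling (0.0883).

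Of the ciliary membrane genes, Arl13b rose and Tulp3 did not pass the test. Arl13b, a GTPase of the ciliary membrane mutated in Joubert syndrome (chromosome 16, positions 62793685 to 62847040, minus strand), was at 8.19 and 7.43 FPKM against 9.06 and 10.25 FPKM (0.27, SE 0.07, limma adjusted p = 0.0167). The call was lost with no filter (0.0591) and without wild-type replicate 2 (0.111) or knockout replicate 2 (0.123). Tulp3, which brings receptors into cilia together with IFT-A, was at 21.12 and 20.22 FPKM against 20.39 and 19.51 FPKM (−0.05, 95% interval −0.15 to 0.05).

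**Figure D4:**
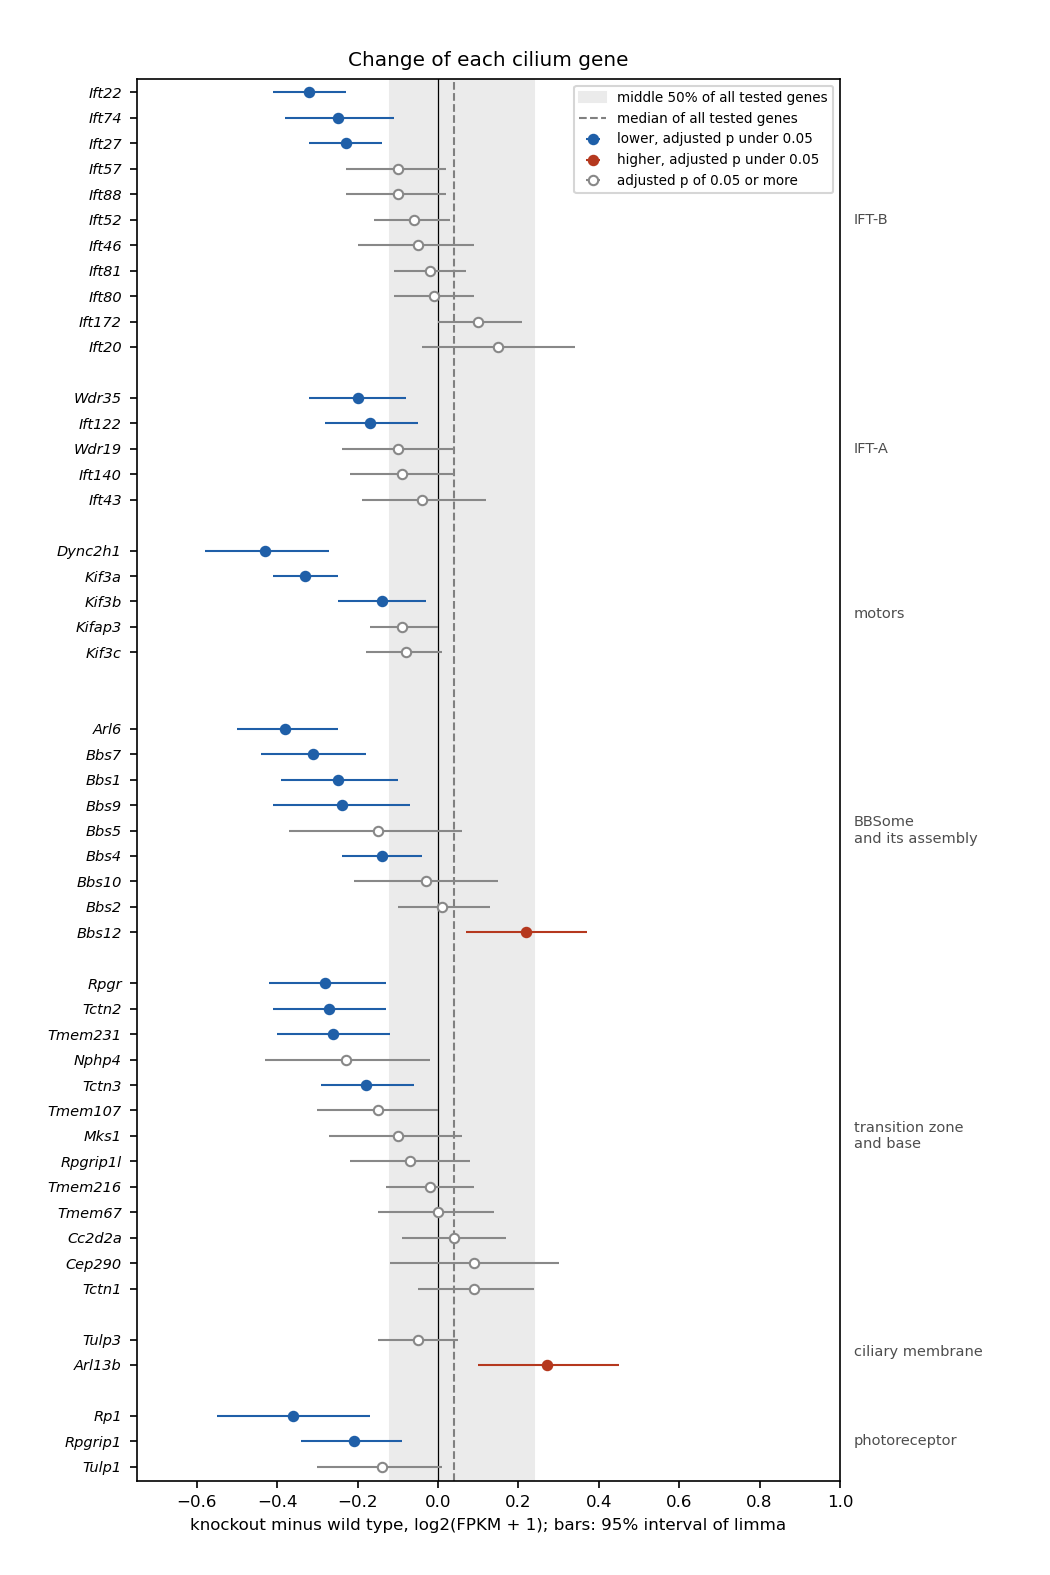
Log2 fold change (knockout minus wild type, on log2(FPKM + 1)) of 48 tested members with the 95% interval of limma, grouped by role, over a band for the middle 50% of all tested genes (−0.12 to 0.24) and a dashed line at their median of 0.04. Filled points passed an adjusted p of 0.05; 19 of those drawn lie on the lower side and 2, Bbs12 and Arl13b, on the higher.

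Of the photoreceptor cilium genes Rp1 and Rpgrip1 fell, by amounts within the range of the general genes, and Tulp1 did not pass the test. Rp1, a microtubule-associated protein of the photoreceptor axoneme (chromosome 1, positions 3999557 to 4409241, minus strand), was at 3.63 and 3.82 FPKM in the wild type and 2.87 and 2.51 FPKM in the knockout, 72.2% of the wild-type mean (−0.36, SE 0.08, limma adjusted p = 0.00806). Rpgrip1, which anchors RPGR in the connecting cilium (chromosome 14, positions 52110704 to 52163546, plus strand), was at 28.64 and 29.77 FPKM against 26.41 and 23.79 FPKM (−0.21, SE 0.05, adjusted p = 0.0132). Tulp1, needed for protein transport to the outer segment (chromosome 17, positions 28351515 to 28365222, minus strand), was at 24.36 and 27.10 FPKM against 24.46 and 21.98 FPKM, so its groups overlapped (−0.14, 95% interval −0.30 to 0.01, adjusted p = 0.108).

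Thus 2 of the 3 photoreceptor genes fell, against 18 lower and 3 higher of 47 general genes tested, and 21.1% lower and 33.5% higher of all genes. With Rpgr counted as a photoreceptor gene it was 3 of 4, against 17 lower and 3 higher of 46. With TPM 1 of the 3 was lower, Rp1. The medians were −0.21 and −0.10, and −0.10 and 0.01 with TPM. No difference between the classes was tested, since 3 genes of 1 tissue are no replicates. The Rp1 call was lost without wild-type replicate 2 and without knockout replicate 2 (limma adjusted p = 0.0553 in each). The Rpgrip1 call was lost with TPM (0.164) and without wild-type replicate 1 (0.0506), wild-type replicate 2 (0.096) or knockout replicate 2 (0.0808), and Supt16 on the other strand overlaps 8.7% of its exon bases. Tulp1 was called lower after lens-free scaling (−0.22, adjusted p = 0.020), with median-of-ratios scaling (−0.19, 0.0454) and with length and GC trends removed (−0.21, 0.0332).

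Each of 2 paralog pairs sets a photoreceptor gene beside a general one. The ratio of Rpgrip1 to Rpgrip1l was 5.91 and 5.98 in the wild type and 5.49 and 5.31 in the knockout, without overlap. The ratio of Tulp1 to Tulp3 was 1.15 and 1.34 against 1.20 and 1.13, with overlap. Before the start of Rpgrip1 lies a TAATCC, the core of sites bound by the photoreceptor regulators CRX and OTX2, on the opposite strand and therefore read as GGATTA in the direction of the gene. This stretch, at chr14:52110835-52110902 on the plus strand, is shown because Rpgrip1, unlike Tulp1, has that match, and Rp1 is not in the promoter table. It precedes the RefSeq start and lies inside the longer GENCODE gene, and the match is in capitals.
Rpgrip1: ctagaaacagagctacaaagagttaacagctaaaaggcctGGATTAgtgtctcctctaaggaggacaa
TAATCC was present on either strand before 2 of 44 member genes (4.55%), the other being Bbs1, and 973 of 14755 listed genes (6.59%).

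Photoreceptor markers moved both ways in the same libraries. Of 19 such markers 15 were tested, and 7 fell (46.7%, against 21.1% of all tested genes) and 6 rose (40%, against 33.5%). The summed level of all 19 was 428.0 and 437.8 FPKM in the wild type and 443.9 and 447.6 FPKM in the knockout. Crx, a regulator of both rods and cones, was at 63.84 and 64.12 FPKM against 73.02 and 74.98 FPKM (0.21, limma adjusted p = 0.00112), and the rod regulator Nr2e3 at 25.98 and 24.29 FPKM against 11.70 and 11.61 FPKM (−1.05). Relative to Crx, Rpgrip1 was lower, with ratios of 0.449 and 0.464 in the wild type and 0.362 and 0.317 in the knockout, and so was Rp1, with 0.0569 and 0.0596 against 0.0393 and 0.0335. Relative to Nr2e3 both were higher, Rpgrip1 with ratios of 1.10 and 1.23 against 2.26 and 2.05, and Rp1 with 0.14 and 0.157 against 0.245 and 0.216. Rhodopsin was low, at 0.99 and 1.22 FPKM against 0.19 and 0.27 FPKM. The part of photoreceptor number or type in these results was not tested.

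Other cilium genes, from lists set by known role, also moved in both directions. Of 102 such genes 84 were tested, and 30 fell (35.7%) and 15 rose (17.9%), with a median of −0.06, or 0.06 with TPM. In all 53.6% were called, near the 54.6% of all tested genes, of which 21.1% were lower and 33.5% higher. In the list of IFT and BBSome subunits with other symbols 2 fell (12.5%) and 3 rose (18.8%) of 16, both shares under those of all genes. Bbip1, a small BBSome subunit, fell from 19.56 and 20.73 FPKM to 15.68 and 15.61 FPKM (−0.34, limma adjusted p = 0.00057), in every fit. Cluap1, an IFT-B subunit, was higher at 16.92 and 16.69 FPKM in the knockout against 14.45 and 14.81 FPKM (0.19, 0.00666), a call lost with lens-free scaling (0.0581) and without knockout replicate 1 (0.0531).

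In the list of further transition zone, inversin compartment and Joubert syndrome genes, 7 fell (41.2%) and 3 rose (17.6%) of 17. The 3 were Invs, Nek8 and Anks6. Over all tested genes 21.1% were lower and 33.5% higher. B9d2 was at 13.40 and 13.18 FPKM against 10.43 and 10.29 FPKM (−0.33, limma adjusted p = 0.000723), Tmem138 at 15.96 and 14.82 FPKM against 12.11 and 11.09 FPKM (−0.38, 0.00149), and Ahi1 at 23.48 and 22.19 FPKM against 17.65 and 19.35 FPKM (−0.29, 0.00343). All 3 calls held in every fit. Among 14 basal body and centriole genes 6 fell (42.9%) and 1 rose (7.14%). Ccp110, which caps centrioles and holds back cilium growth, fell from 23.25 and 24.20 FPKM to 18.12 and 17.53 FPKM (−0.39, 0.000231), and Cep89, of the distal appendages, from 14.57 and 14.29 FPKM to 11.59 and 10.65 FPKM (−0.35, 0.00129). Both calls held in every fit.

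The list for membrane delivery was near all tested genes, with 5 genes higher (35.7%, against 33.5% of all genes) and 3 lower (21.4%, against 21.1%) of 14. Its median was 0.05, against 0.04 for all genes, and −0.02 with lens-free scaling. Adcy3, the adenylyl cyclase of neuronal cilia, rose from 3.84 and 4.42 FPKM to 6.70 and 6.11 FPKM (0.53, limma adjusted p = 0.00129), in every fit. Arl3, a GTPase that releases lipidated cargo in cilia, fell from 62.61 and 63.25 FPKM to 53.98 and 55.43 FPKM (−0.20, 0.00149), a call lost with TPM (0.060). Of the regulators, Rfx5 rose (0.38, 0.00182), Rfx2 fell (−0.28, 0.00624) and Rfx3, the family member best known from cilia, was at 7.0 and 7.23 FPKM against 6.94 and 6.95 FPKM (−0.03, 0.654).

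The lists of the outer segment and of motile axonemes each held a larger fall than that of any member. Of 10 tested photoreceptor outer segment and connecting cilium genes 5 fell (50%, against 21.1% of all tested genes) and 1 rose (10%, against 33.5%). The median of these 10 was −0.16. Rom1, a tetraspanin of outer segment discs, was at 17.80 and 18.98 FPKM in the wild type and 10.82 and 13.07 FPKM in the knockout (−0.59, limma adjusted p = 0.000954), and its partner Prph2 at 9.12 and 8.74 FPKM against 6.60 and 6.71 FPKM (−0.38, 0.000962), both in every fit.

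Of 17 motile cilium genes only 7 reached the level tested. Of these 5 fell (71.4%, against 21.1% of all tested genes) and 1 rose (14.3%, against 33.5%), the same counts as with TPM. Rsph1, of the radial spokes, fell from 7.05 and 8.96 FPKM to 3.01 and 3.28 FPKM (−1.11, SE 0.10, limma adjusted p = 0.000147). Tekt1, a microtubule protein of motile axonemes, fell from 5.88 and 5.82 FPKM to 3.0 and 2.96 FPKM (−0.78, adjusted p = 6.81e-05), and Ccdc39, which sets the axonemal repeat, from 8.94 and 9.39 FPKM to 6.47 and 5.65 FPKM (−0.53, adjusted p = 0.000749). Tekt2 went the other way, from 2.28 and 2.21 FPKM to 3.79 and 3.26 FPKM (0.48, adjusted p = 0.00294). These 4 calls held in every fit they entered. Foxj1, the main activator of motile cilia, was low and fell from 2.16 and 1.83 FPKM to 1.10 and 1.16 FPKM (−0.49, adjusted p = 0.00467).

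Of the 10 multiciliated markers, 3 reached the level tested, Ccdc39, Tekt1 and Foxj1, and all 3 fell (median −0.53), where 21.1% of all tested genes fell. The fate regulator genes Mcidas (0.05 to 0.12 FPKM) and Gmnc (0.00 to 0.17 FPKM), and the dynein gene Dnah5 (0.03 to 0.04 FPKM), were near 0 in all libraries, and the other 7 markers, these included, had a mean under 1 FPKM. The summed level of that list was 18.5 and 19.0 FPKM in the wild type and 12.2 and 11.6 FPKM in the knockout, most of it from Ccdc39 and Tekt1.

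**Figure D5:**
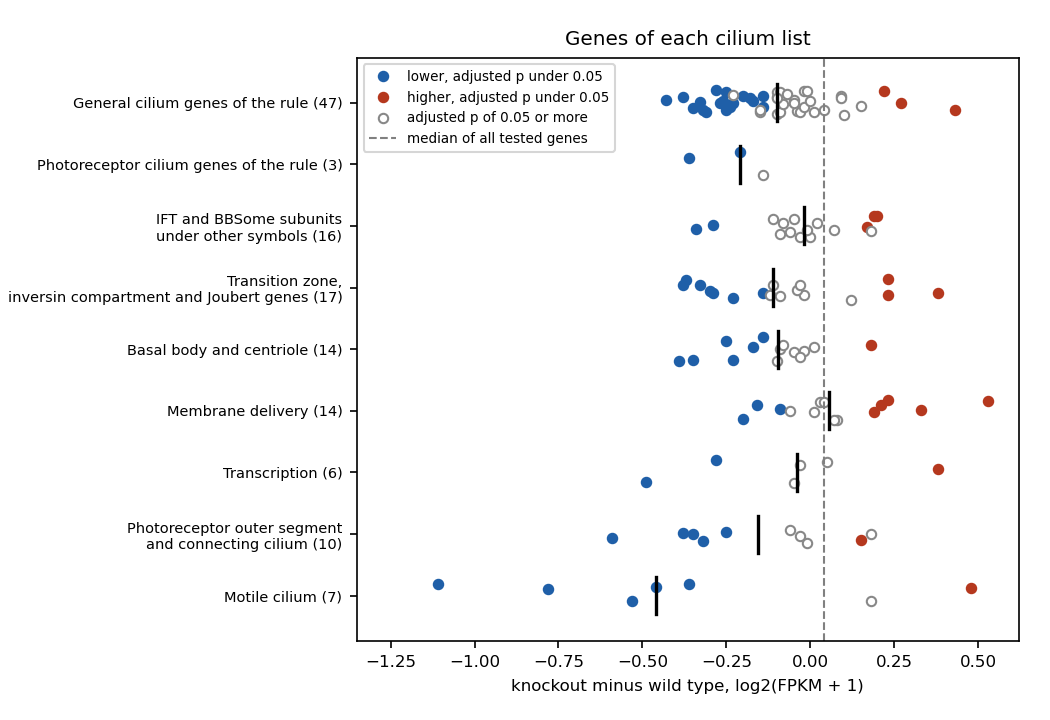
Log2 fold change (knockout minus wild type, on log2(FPKM + 1)) of every tested gene in the members' 2 classes and in 7 lists of other cilium genes, with the number tested in brackets, the median of each list as a bar and the median of all tested genes (0.04) as a dashed line. The motile cilium list has the lowest median, −0.46, from 7 genes, and the membrane delivery list a median of 0.05.

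The members' changes were not ordered by transcript length or level. Across the 50 tested members, which share libraries and scaling, Spearman's rho between log2 fold change and longest annotated transcript length was 0.10. With the mean level it was −0.04. After removal of length and GC trends 26 members were lower (52%) and 3 higher (6.0%). Over all tested genes 28.6% were then lower and 27.8% higher. The members' median was −0.16 in that fit, against −0.01 for all tested genes.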

How the data were processed

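Per the labels' protocols, Trizol was used for total RNA of eyes and Illumina methods for the libraries. The authors deposited 1 table per library with FPKM values, per the file headers, and TPM values, which the deposited tables give as rescaled FPKM. HISAT2, TopHat, Cufflinks and DESeq and the builds GRCm38 and GRCh38 are named in the submitters' processing notes, without versions or roles. The sources used here do not give which tool made the values, nor the annotation, filters or strand setting. Spreadsheet dates stood in place of 26 of 18702 symbols, and Entrez numbers, 99.7% of them in RefSeq, gave these back. Positions, overlaps and lengths come from GENCODE M21 (GRCm38).

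The files hold no counts, so no count test was run. Low FPKM values of single-transcript genes lie on steps worth 1 fragment, which gave the depths quoted. Within 0.15 of a whole number of fragments lay 57.4% to 65.1% of these values (chance 30.0%), so counts could not be recovered and the depths are estimates. Over 1414 genes in the wild type and 1455 in the knockout the replicates differed by a mean chi-square of 1.96 and 1.90 per gene. These means exceed counting noise. The medians were lower, 0.623 and 0.547, and both replicates were kept.

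On the log2(FPKM + 1) scale, genes averaging 1 FPKM or more entered a fit by genotype alone in limma 3.58.1, run in R 4.3.3, with the trend option, tested two-sided at an adjusted p under 0.05. A fold change on this scale understates the change of low genes. Degrees of freedom were 2 residual and 4.891 prior. The code was tested on simulated data with few changed genes and no shift in tissue makeup, so that test cannot judge the calls made here. The members, their roles, the lists of other cilium genes and the markers were chosen with earlier results of these data known. Values are given for the photoreceptor genes, their paralogs, up to 5 called members with the lowest p and the 2 with the highest p of each role, and up to 4 genes with the lowest p of each other list; further genes, ratios and the X-box search (the full site by its consensus) were chosen after values were seen. The fit was repeated with a pseudocount of 0.1, no filter, at least 5 FPKM in 2 libraries, TPM, median-of-ratios scaling, lens-free scaling (without 31 crystallin and erythroid genes), the replicate number as a block, no variance trend, omission of each library, and Rpgr in the photoreceptor class. After seeing the data, removal of trends with transcript length and GC content was tried too. Other steps ran in Python 3.11.15 with pandas 2.3.3. The counts cover all members, and single values of 2 members are not reported here.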

Additional observations from a re-analysis of the deposited data

How the results depend on the processing

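With TPM, 1667 of all genes were lower, 6 members were higher and 8 lower, and 24 other cilium genes were higher and 19 lower. TPM is FPKM rescaled to a fixed sum, so its construction moves all genes of a library together. With lens-free scaling 6 other cilium genes were higher, and with length and GC trends removed 8 were; the cause was not tested. Without 1 library, 9 to 14 members were lower, and 6 to 11 other cilium genes were higher (11 without wild-type replicate 1, 10 without wild-type replicate 2, 6 without knockout replicate 1, 8 without knockout replicate 2), from fits with fewer samples in which the lone library of a group is assumed to vary like the others. Whether same-numbered libraries share more than a number is not said. The difference between replicates 1 and 2 correlated at 0.04388 between the groups over 13887 genes. That is 1 difference per group, so it cannot decide this. The replicate block gave 4 higher and 21 lower members, and 4781 higher and 3047 lower genes in all.

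Reversed signs among members were limited to genes that had not passed the threshold. With TPM the log2 differences became positive for Mks1 (0.0053), Tmem216 (0.09), Ift80 (0.11), Ift43 (0.08), Tmem67 (0.11), Bbs10 (0.06), Ift46 (0.06), Ift52 (0.05), Ift81 (0.10), Kifap3 (0.03), Rpgrip1l (0.04), Ift140 (0.02), Ift57 (0.0028), Tulp3 (0.07), Kif3c (0.03), Ift88 (0.0080) and Wdr19 (0.0065). Rab11a, a gene of membrane delivery called lower with FPKM, was at 0.03 with TPM. Bbs2 turned to −0.04 with median-of-ratios scaling, −0.06 with lens-free scaling and −0.03 with length and GC trends removed, and Cc2d2a to −0.0062, −0.03 and −0.0034. Tctn1 was at −0.0045 with length and GC trends removed. Without 1 library the difference ran from −0.03 to 0.05 for Bbs2, −0.06 to 0.01 for Tmem216, −0.02 to 0.01 for Ift80, −0.14 to 0.06 for Ift43, −0.07 to 0.06 for Tmem67, −0.0098 to 0.09 for Cc2d2a, −0.14 to 0.03 for Ift46 and −0.02 to 0.20 for Cep290. The causes were not tested. Depth limits mainly Kif17 and Bbs10, with counting errors of 18.6% and 8.61%.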
